A study of Danio rerio with 6 samples.

Results

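The cytosolic ribosomal protein genes of zebrafish were examined in slow-twitch muscle cells and trunk neural crest cells sorted from embryos at 24 hours post fertilization. They were taken as every row of the deposited count table with a symbol of rpl or rps followed by a number, or rplp0, rplp1 or rplp2, each with up to 2 further letters. The rps6k kinase genes were left out. This gave 78 of the 32520 genes. Of these, 42 encode proteins of the large subunit, 4 proteins of its stalk and 32 proteins of the small subunit. The filter on low counts was passed by 76 of them, among 17701 genes tested.

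Ribosomes read messenger RNA and join amino acids into protein. The small subunit holds the messenger RNA and checks its pairing with transfer RNAs. The large subunit forms the peptide bond and carries the stalk, a flexible arm that recruits elongation factors. Each ribosome needs its proteins in fixed proportion. Most vertebrate ribosomal protein mRNAs begin with an oligopyrimidine tract that places their translation under mTOR, and they are abundant in nearly every animal cell.

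Bulk RNA sequencing covered 6 libraries in 3 groups of 2. Slow muscle (replicates 1 and 2) was sorted on prdm1a:eGFP, a reporter on a PAC (a large genomic clone), and prdm1a directs the slow fibre fate. Cyclopamine-treated neural crest (replicates 3 and 4), called treated crest here, and untreated neural crest (replicates 1 and 2) were sorted on sox10:mRFP, whose promoter is active in neural crest. All embryos were wild type, were kept at 28 °C and carried both transgenes according to the series. Treated embryos were in 100 µM cyclopamine, an alkaloid that blocks the Hedgehog transducer Smoothened, starting at 50% epiboly. The embryos of the other groups had no treatment, and no vehicle is stated. The titles of both untreated crest libraries contain the word slow-twitch, although tissue and source are given as neural crest. Nothing in the labels tells whether the replicates are separate pools of embryos. P-values therefore describe the spread between these libraries alone, which may be technical. With 2 libraries against 2, an exact two-sided permutation test of a single value cannot give a p below 0.333.

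Total counts were 24358588 and 26441238 in slow muscle, 20973884 and 18781774 in treated crest, and 17504692 and 15355583 in untreated crest. Between 13249 and 17275 genes had a count, the fewest in cyclopamine replicate 4. Levels are given as CPM over a library size set by trimmed mean of M values (TMM), and they are not corrected for transcript length. The markers followed the sort: 5 slow muscle markers summed to 28752 to 62361 CPM in slow muscle and to 158 to 233 CPM in crest. The 5 neural crest markers summed to 36.3 to 60.3 CPM in slow muscle and to 5013 to 6017 CPM in crest. Markers of epidermis and endothelium were higher in slow muscle, with 4 epidermal ones at 5445 to 7459.8 CPM in slow muscle and 277 to 1181 CPM in crest. The 4 endothelial ones reached 1105 to 1294 CPM in slow muscle, against 90.9 to 176 CPM in crest. The 3 erythroid markers summed to 36.8 to 83.4 CPM in slow muscle and 27.7 to 77.4 CPM in crest. The 3 neural tube markers summed to 94.3 to 144 CPM in slow muscle and 166 to 285 CPM in crest. Of these only elavl3 was higher in crest, at 137 to 220 CPM against 39.7 and 48.0 CPM in slow muscle, while sox2 and sox3 overlapped. At 0 were mitfa in both slow muscle libraries, tnnc1b in both treated crest libraries and untreated replicate 2, and smyhc1, myl10, krt5 and gata1a in cyclopamine replicate 4. The part of these cells in the values of the ribosomal protein genes was not tested.

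The ribosomal protein genes took up a smaller share of all counts in slow muscle than in untreated crest. They held 7.75% and 7.10% of the counts in slow muscle, 11.2% and 5.72% in treated crest, and 9.93% and 10.4% in untreated crest. The group means were 7.43% ± 0.453 in slow muscle, 8.44% ± 3.84 in treated crest and 10.1% ± 0.311 in untreated crest (SD, n = 2 each). Slow muscle and untreated crest did not overlap, and the slow muscle mean was 0.732 of the untreated mean. The treated pair spanned the range of both other groups. Wilson 95% intervals, which cover counting error only, were at most 0.0305 percentage points wide. In bulk samples fewer cells of a type and less RNA per cell cannot be told apart.

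That share depends on what else fills the library. Mitochondrially encoded genes held 4.78% and 3.89% of counts in slow muscle, 2.55% and 1.21% in treated crest and 2.77% and 3.04% in untreated crest. With these genes left out of the total, the ribosomal protein share was 8.13% and 7.39% in slow muscle, 11.4% and 5.80% in treated crest and 10.2% and 10.7% in untreated crest. With the 10 most abundant other genes of each library left out, it was 8.76% and 7.77% in slow muscle, 12.1% and 6.16% in treated crest and 10.7% and 11.2% in untreated crest. Slow muscle stayed below untreated crest on each of these totals.

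On the TMM scale, which sets the bulk of genes level across libraries, slow muscle and untreated crest overlapped. The TMM factors were 0.779 and 0.897 in slow muscle and 1.05 to 1.13 in crest. The median of the 73 members with a mean count of at least 1000, called abundant here, was 1264 and 988 CPM in slow muscle. It was 1268 and 568 CPM in treated crest, and 1127 and 1160.2 CPM in untreated crest. The balance between the subunits stayed within 1 percentage point across libraries. Small subunit genes held 38.7% and 38.3% of the members' counts in slow muscle, 38.5% and 37.9% in treated crest and 38.2% and 38.4% in untreated crest.

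**Figure D1:**
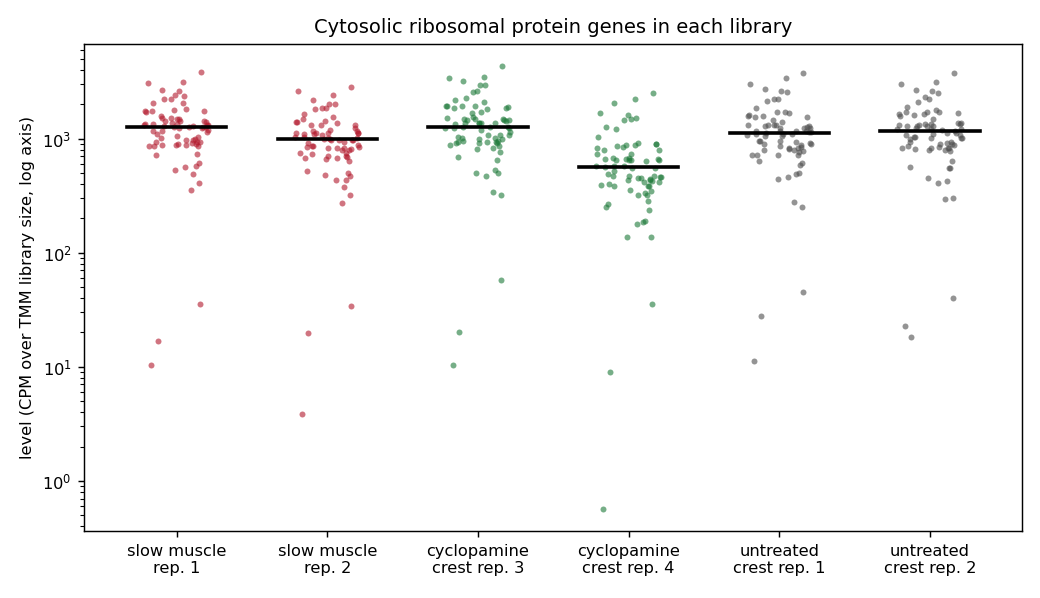
Level of each ribosomal protein gene that passed the filter (points) in the 6 libraries, in CPM over the TMM library size on a log axis; bars are the medians of the 73 members with a mean count of at least 1000. The median is 568 CPM in cyclopamine replicate 4 and 988 to 1268 CPM in the other 5 libraries, and 3 members lie far below the rest in every library.

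Slow muscle was compared with untreated crest to see which ribosomal protein genes differ between the sorted populations. No member was called higher or lower by edgeR's quasi-likelihood test at an adjusted p below 0.05, against 1.67% of all tested genes called higher and 0.876% called lower. No member had an unadjusted p below 0.05 in edgeR (11.5% of all genes did as higher and 7.67% as lower). DESeq2 called 0 members (11.6% of all genes higher and 6.04% lower). The median log2 fold change of the 76 members was -0.04, against 0.08 over all 17701 genes, with 26 positive and 50 negative values from -1.26 to 0.38. Large subunit genes had a median of -0.05 (41 tested), small subunit genes -0.04 (31 tested) and stalk genes -0.08 (4 tested). The median SE of a member was 0.45. These SEs and p-values draw on the spread in all 6 libraries. That includes the treated pair, whose replicates differed by a median log2 of 1.14 over the 73 members with a mean count of at least 1000.

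Differences between the slow muscle replicates were as large as those between the groups. Replicate 1 lay above replicate 2 for 73 of 73 abundant members, by a median log2 difference of 0.34. Untreated replicate 1 was above replicate 2 for 26 of 73, with a median of -0.04. Relative to untreated replicate 1, slow muscle replicate 1 was higher for 65 of 73 members and slow muscle replicate 2 for 6 of 73. The 5 slow muscle markers also differed between these replicates, at 62361 CPM in replicate 1 and 28752 CPM in replicate 2. Their part in the ribosomal protein values was not tested.

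Groups did not overlap for 3 members that were higher in slow muscle, namely rpl34, rplp2 and rps21, or 3.95% of the 76, against 33.6% of all genes. They did not overlap for 8 that were lower, or 10.5%, against 27.3% of all genes. These were rpl4, rpl6, rpl9, rpl23a, the second rpl37 row, rplp0, rplp1 and rps15a.

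**Figure D2:**
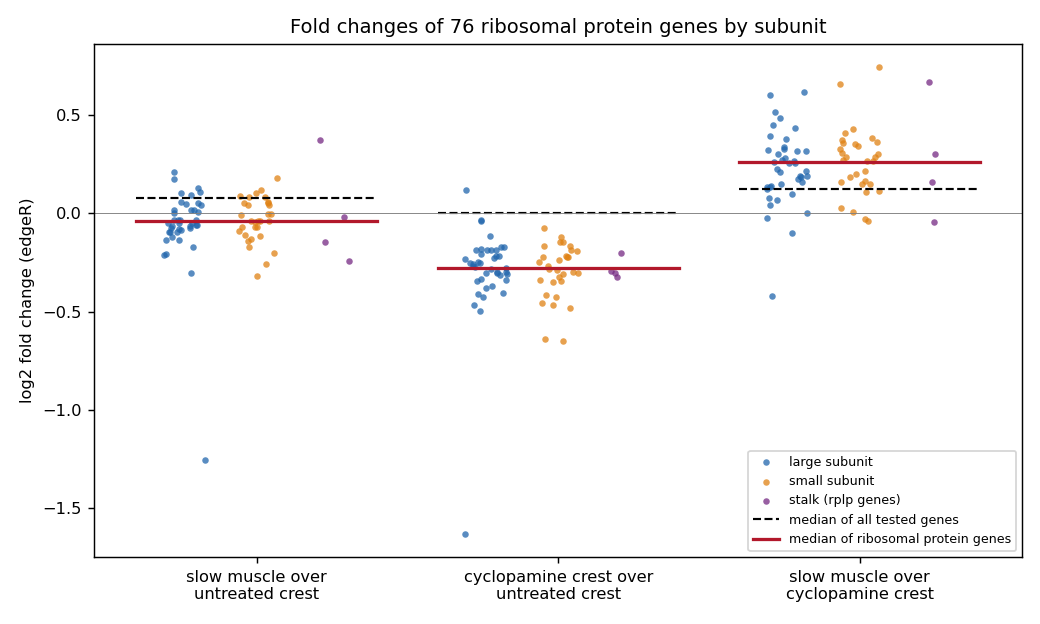
Log2 fold change of each ribosomal protein gene in the 3 comparisons, from edgeR's fit of all 6 libraries. The medians are -0.04 for slow muscle over untreated crest, -0.28 for treated over untreated crest and 0.26 for slow muscle over treated crest, and no member passed the test in any of them.

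Among the stalk genes, rplp2 (ENSDARG00000101406) had the most positive difference of all members between slow muscle and untreated crest. It stood at 405 and 319.6 CPM in slow muscle, 319 and 136 CPM in treated crest and 254 and 305 CPM in untreated crest. Both slow muscle libraries were above both untreated ones, and replicate 2 was level with cyclopamine replicate 3. Its log2 fold change over untreated crest was 0.38 with an SE of 0.46 (adjusted p = 0.740 by edgeR). The paralogue rplp2l (ENSDARG00000011201) stood at 1477 and 1023 CPM in slow muscle, 1381 and 643 CPM in treated crest and 1178 and 1356 CPM in untreated crest, and the groups overlapped. The gene of the stalk base, rplp0 (ENSDARG00000051783), had the opposite order, with 3129 and 2405 CPM in slow muscle, 3451 and 2248 CPM in treated crest and 3381 and 3165 CPM in untreated crest. Both slow muscle libraries were below both untreated ones, with a difference of -0.24 with an SE of 0.39 (adjusted p = 0.830 by edgeR). rplp1 (ENSDARG00000021864), the partner of rplp2 in the stalk dimers, stood at 1567 and 1329 CPM in slow muscle, 1917 and 678 CPM in treated crest and 1576 and 1625 CPM in untreated crest. Slow muscle replicate 1 lay just under the untreated values and replicate 2 further below, and the log2 fold change was -0.14 with an SE of 0.53 (adjusted p = 0.948 by edgeR).

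Large subunit genes with known roles overlapped between slow muscle and untreated crest. rpl3 (ENSDARG00000003599), whose protein reaches close to the site of peptide bond formation, stood at 2692 and 2202 CPM in slow muscle, 3176 and 2061 CPM in treated crest and 2719.6 and 2664 CPM in untreated crest. The log2 difference of slow muscle from untreated crest was -0.14 with an SE of 0.38 (adjusted p = 0.925 by edgeR). The proteins of rpl5 and rpl11 travel with the small ribosomal RNA of the large subunit. rpl11 (ENSDARG00000043509) stood at 1170.2 and 1035 CPM in slow muscle, 1243 and 568 CPM in treated crest and 1094 and 1085 CPM in untreated crest. The other gene of this complex has 2 copies. rpl5a (ENSDARG00000020197) had 1416 and 1231 CPM in slow muscle, 1432 and 893 CPM in treated crest and 1257 and 1361 CPM in untreated crest. rpl5b (ENSDARG00000015862) had 1709.7 and 1399.7 CPM in slow muscle, 1913 and 1035 CPM in treated crest and 1598 and 1591 CPM in untreated crest. For each of these the slow muscle pair enclosed both untreated values, and the log2 fold changes were 0.02 for rpl11, 0.02 for rpl5a and -0.04 for rpl5b. rpl10 (ENSDARG00000025581), among the last proteins to join the subunit, had 1338 and 1116 CPM in slow muscle, 1368 and 681 CPM in treated crest and 1228 and 1217 CPM in untreated crest. Here too the slow muscle pair enclosed the untreated values.

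rpl38 (ENSDARG00000006413), which in the mouse is needed for full translation of some Hox mRNAs, stood at 562 and 438 CPM in slow muscle, 472 and 179 CPM in treated crest and 458 and 407 CPM in untreated crest. Slow muscle replicate 1 was above every crest library, while replicate 2 lay within the crest range. The log2 difference from untreated crest was 0.21 with an SE of 0.49 (adjusted p = 0.905 by edgeR). rpl39 (ENSDARG00000036316), a small protein that lines the exit tunnel, stood at 991 and 754 CPM in slow muscle, 925 and 322 CPM in treated crest and 726 and 822 CPM in untreated crest. Slow muscle replicate 2 lay inside the untreated range, and the difference was 0.17 with an SE of 0.53 (adjusted p = 0.936 by edgeR). rpl12 (ENSDARG00000006691), which sits at the foot of the stalk, had 1398 and 1172 CPM in slow muscle, 1909 and 656 CPM in treated crest and 1288 and 1342 CPM in untreated crest. The highest rpl12 value was in cyclopamine replicate 3 and the lowest in replicate 4.

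Small subunit genes were as close. rps6 (ENSDARG00000019778), whose protein is the classic substrate of the S6 kinases downstream of mTOR, stood at 2229 and 1868 CPM in slow muscle, 2558 and 1467 CPM in treated crest and 2222 and 2298 CPM in untreated crest. The slow muscle and untreated values overlapped, with a log2 difference of -0.14 with an SE of 0.40 (adjusted p = 0.927 by edgeR). rps2 (ENSDARG00000077291) and rps3 (ENSDARG00000103007) encode proteins near the entry of the messenger RNA channel. The level of rps2 was 3837 and 2862 CPM in slow muscle, 4319 and 2516 CPM in treated crest and 3760.5 and 3795 CPM in untreated crest. The level of rps3 was 1313 and 1109 CPM in slow muscle, 1449 and 801 CPM in treated crest and 1250.2 and 1365 CPM in untreated crest. Both genes had slow muscle values on either side of an untreated one. rps19 (ENSDARG00000030602), linked in humans to Diamond-Blackfan anaemia, stood at 937 and 818 CPM in slow muscle, 991 and 429 CPM in treated crest and 779 and 875 CPM in untreated crest. rps14 (ENSDARG00000036629), linked in humans to an anaemia with a chromosome deletion, stood at 1252 and 977 CPM in slow muscle, 1267 and 456 CPM in treated crest and 1094 and 1199.9 CPM in untreated crest. Neither separated slow muscle from untreated crest. rps27a (ENSDARG00000032725), made as a fusion to ubiquitin, had 1514 and 1165 CPM in slow muscle, 1495 and 525 CPM in treated crest and 1286 and 1244 CPM in untreated crest.

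rps13 (ENSDARG00000036298) had the most negative difference of the abundant members, at 859.7 and 636 CPM in slow muscle, 869 and 435 CPM in treated crest and 845 and 941 CPM in untreated crest. Slow muscle replicate 1 lay inside the untreated range, and the log2 difference was -0.26 with an SE of 0.42 (adjusted p = 0.834 by edgeR). rps21 (ENSDARG00000025850) lay in the other direction, at 534 and 477 CPM in slow muscle, 504 and 136 CPM in treated crest and 446 and 448 CPM in untreated crest. Both slow muscle libraries were above both untreated ones, with a difference of 0.18 with an SE of 0.59 (adjusted p = 0.942 by edgeR). rps29 (ENSDARG00000041232), among the smallest ribosomal proteins, stood at 729 and 503 CPM in slow muscle, 500.4 and 236 CPM in treated crest and 590.4 and 556 CPM in untreated crest. Its slow muscle values lay on both sides of the untreated ones.

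The proportions among the members were alike from library to library, apart from cyclopamine replicate 4, which is described below. Over the 73 abundant members, the SD of the log2 ratio between libraries was 0.0921 to 0.157 in the 10 pairs without cyclopamine replicate 4. Slow muscle replicates differed by an SD of 0.0921 over members, against 0.507 over 461 other genes of at least the lowest abundant member's mean count (5827). Untreated replicates differed by 0.103 over members, against 0.306 over those genes.

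Levels were also read against the median member of each library. On this scale 13 members, or 17.1%, were higher in slow muscle than in untreated crest without overlap, against 33.8% of all genes, and 22, or 28.9%, were lower, against 25.3%. Between treated and untreated crest 25, or 32.9%, were higher, against 17.5% of all genes, and 6, or 7.89%, were lower, against 11.1%. Between slow muscle and treated crest 9, or 11.8%, were higher, against 25.3% of all genes, and 26, or 34.2%, were lower, against 23.6%. Set against all 4 crest libraries, 6 members, or 7.89%, were higher in both slow muscle libraries (21% of all genes were), namely rpl27, rpl32, rpl38, rpl39, rplp2 and rps21. A further 16, or 21.1%, were lower (16.1% of all genes), among them rpl3, rpl4, rpl6, rplp0, rps2, rps4x and rps6. No test was made of these counts. The scale centres the members themselves in each library, so the share of all genes is not a matched background for them.

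Several members have paralogues, and the division of counts within a pair does not depend on the scaling of the library. The share of rplp2 in the counts of rplp2 and rplp2l was 21.5% and 23.8% in slow muscle, 18.8% and 17.5% in treated crest, and 17.7% and 18.3% in untreated crest. Both slow muscle libraries lay above all 4 crest libraries. Their Wilson 95% intervals began at 21.1% and 23.3%, and the highest crest interval ended at 19.2%. These intervals cover counting error only, and those of the slow muscle replicates did not overlap each other either. The share of rps26 in rps26 and rps26l was 36.7% in each slow muscle library, 30.6% and 34.8% in treated crest, and 31.5% and 31.9% in untreated crest. It was again highest in slow muscle. The genes rplp2 and rps26l are next to each other in the RefSeq annotation of GRCz12tu. They were the only neighbours among the 78 members, which lie on 25 chromosomes or scaffolds there. The share of rpl5a in rpl5a and rpl5b overlapped, at 45.3% and 46.8% in slow muscle, 42.8% and 46.3% in treated crest, and 44.0% and 46.1% in untreated crest.

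Other pairs combine a member with a relative outside the symbol rule. The share of rpl22 in rpl22 and its paralogue rpl22l1, which Rpl22 keeps low in the mouse, was 64.9% and 63.6% in slow muscle. It was 72.0% and 67.4% in treated crest and 68.8% and 69.4% in untreated crest, so both slow muscle libraries were the lowest. The share of rpl7 in rpl7 and rpl7l1 was 96.3% and 96.7% in slow muscle and between 92.8% and 95% in the 4 crest libraries. No test was made of these shares, since an exact permutation test of slow muscle against untreated crest could not give a p below 0.333. The sources used here do not say how reads that map to several places were counted, so a division between near-identical copies is uncertain.

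**Figure D3:**
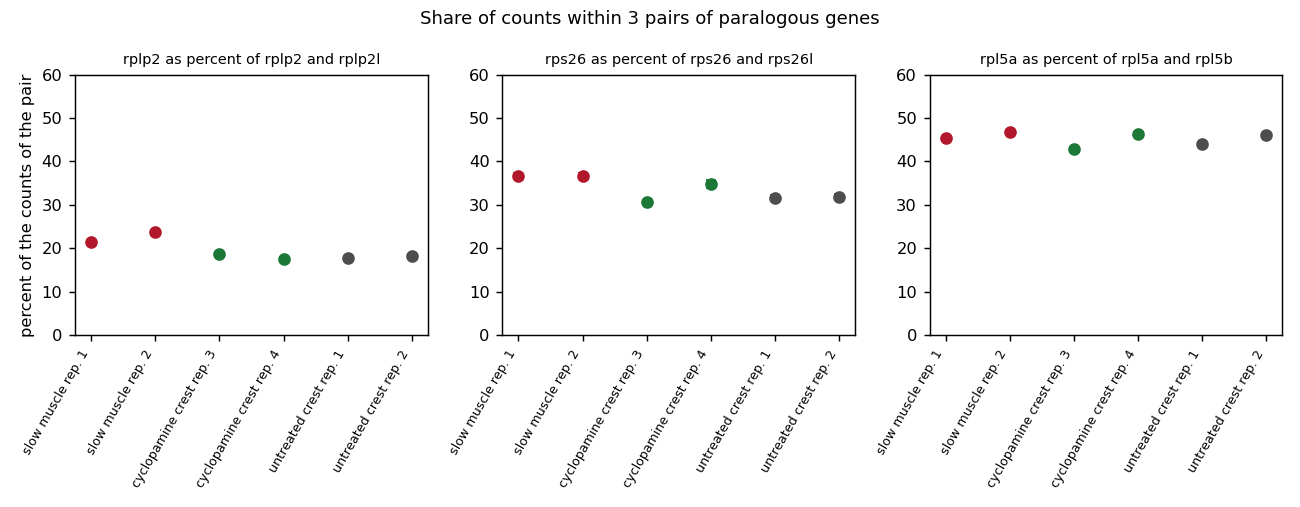
Share of counts within the pairs rplp2 and rplp2l, rps26 and rps26l, and rpl5a and rpl5b in each library, in percent of the pair. Wilson 95% intervals, which cover counting error only, are mostly smaller than the points. For rplp2 the slow muscle libraries are at 21.5% and 23.8% and the crest libraries at 17.5% to 18.8%; for rpl5a the groups overlap.

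The comparison of treated with untreated crest asks whether blocking Hedgehog signalling changes expression in the crest. Treated libraries are replicates 3 and 4 and untreated ones replicates 1 and 2. Any difference that goes with sample number therefore cannot be told apart from the treatment. No member was called by edgeR in either direction (0% of all genes were called higher and 0% lower). None had an unadjusted p below 0.05 (2.48% of all genes higher and 1.85% lower), and DESeq2 called 0 members (0.937% of all genes in each direction). The median log2 fold change of the members was -0.28, against 0 over all genes, with 1 positive and 75 negative values from -1.63 to 0.12. Large subunit, small subunit and stalk genes had medians of -0.27, -0.28 and -0.30. These values average libraries that lay on either side of the untreated ones. Cyclopamine replicate 3 was above untreated replicate 1 for 71 of 73 abundant members, by a median of 0.21. Cyclopamine replicate 4 was below it for 73 of 73, with a median of -0.93.

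The most negative of the abundant members was rps29 (ENSDARG00000041232), with 500.4 and 236 CPM in treated crest and 590.4 and 556 CPM in untreated crest. The log2 difference was -0.64 with an SE of 0.44 (adjusted p = 0.844 by edgeR). rpl27 (ENSDARG00000015128), with 928 and 404 CPM in treated crest and 953 and 928 CPM in untreated crest, had a difference of -0.50 with an SE of 0.45 (adjusted p = 0.944 by edgeR). Its replicate 3 equalled the lower untreated library within 1 CPM. With the second rpl37 row these were the 3 members that were lower without overlap, against 16.6% of all genes. No member was higher without overlap, against 14.6%.

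The sign of the median rested on single libraries. Without cyclopamine replicate 4 no member was called (0.0494% of all genes were called higher and 0.0346% lower) and the median was 0.19. Without cyclopamine replicate 3 it was -0.97, against -0.17 over all genes. Each of these fits has only 1 treated library, which is assumed to vary like the other groups.

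Cyclopamine replicate 4 stood apart from the other 5 libraries in these genes. All 73 abundant members were lower there than in every other library, as were 26.6% of the 3719 other genes with a mean count of at least 1000 and no count of 0. The members stood at a median of 50.6% of their geometric mean (a mean of log2 CPM) in the other 5 libraries. The median log2 difference was -0.98 for the members and 0.06 for those other genes. Over the 461 of them with a mean count of at least 5827, it was -0.11, and 32.3% lay below every other library. The members differed in how far below they lay. The lowest was rps21 at 28.4%, followed by rpl36 at 31.6% and rps25 at 35.3%. The highest were rpl3 at 77.1%, rplp0 at 72.9% and rps4x at 71.6%. The SD of the log2 ratio over members was 0.264 to 0.321 in the 5 pairs with this library. Between the treated replicates it was 0.275 over members, against 1.40 over the 461 other genes. Members with higher CPM in the other libraries stood at a higher percentage of it. Since CPM is not corrected for transcript length, level and length cannot be told apart in this trend. On log2 values, Pearson r was 0.55 and Spearman rho 0.53 over 73 genes of the same libraries, which are not independent replicates. The same library had the fewest genes with a count, 13249 against 15281 to 17275 in the others. Some related lists were low in this library too, and others were not. In cyclopamine replicate 4, mTOR, S6 kinase and Myc genes held 0.228% of counts, against 0.125% to 0.204% in the other 5 libraries. Mitochondrial ribosomal protein genes held 0.110% of its counts, against 0.230% to 0.291% in the other 5 libraries. Without cyclopamine replicate 3 their median log2 fold change over untreated crest was -1.42, with 13 called lower by edgeR (4.87% of all genes). The cytosolic ribosomal proteins and near relatives outside the symbol rule had a median of -0.78 in that fit. The part of the narrower detection in this library in the members' values was not tested.

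**Figure D4:**
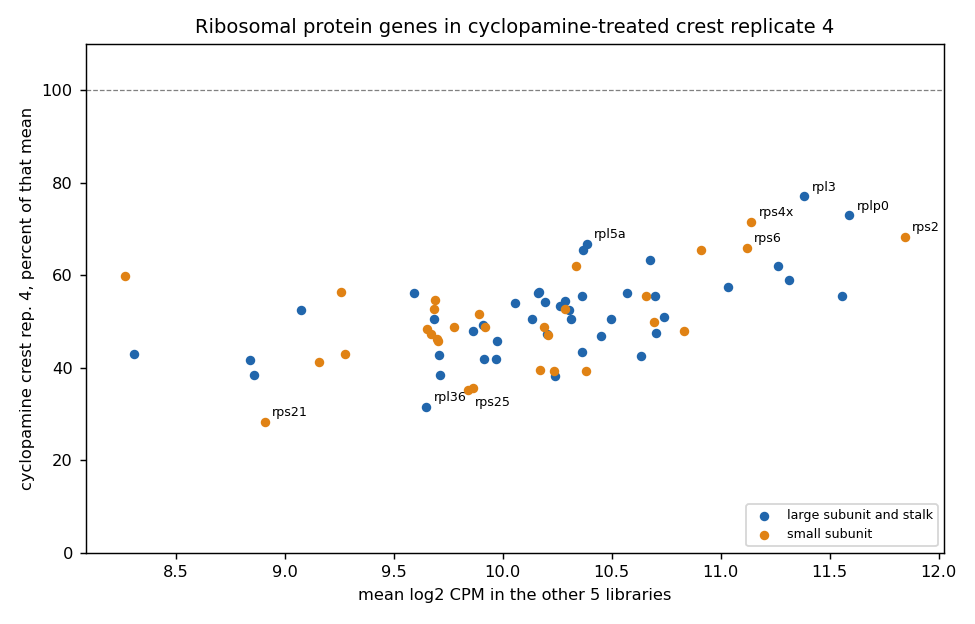
Level of each of the 73 abundant ribosomal protein genes in cyclopamine replicate 4, in percent of its geometric mean in the other 5 libraries, against that mean (log2 CPM, not corrected for length). Every point is under 100%, from 28.4% for rps21 to 77.1% for rpl3, with a median of 50.6%.

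Slow muscle was also set against treated crest, a comparison that shares its libraries with the other 2. No member was called by edgeR (1.38% of all genes were called higher and 0.797% lower). None had an unadjusted p below 0.05 (11.2% of all genes higher and 8.41% lower), and DESeq2 called 0 members (10.6% higher and 6.49% lower). The median log2 fold change was 0.26, against 0.12 over all genes, with 70 positive and 6 negative values. Over all genes it was 0.11 without cyclopamine replicate 4 and 0.66 without replicate 3, fits whose member medians are given below. rps29 (ENSDARG00000041232) had the largest difference, with 729 and 503 CPM in slow muscle and 500.4 and 236 CPM in treated crest, or 0.74 with an SE of 0.44 (adjusted p = 0.397 by edgeR). rplp2 (ENSDARG00000101406) had 405 and 319.6 CPM in slow muscle and 319 and 136 CPM in treated crest, or 0.67 with an SE of 0.46 (adjusted p = 0.447 by edgeR). These were the 2 members that were higher without overlap (31.1% of all genes), and none was lower (21.8%). Without cyclopamine replicate 4 there were 0 calls (5.41% of all genes higher and 3.28% lower) and the median was -0.21. Without replicate 3 the median was 0.93, with 42 of 78 members called higher (12.2% of all genes) and 0 lower (5.77%).

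A few members had low counts. How reads that map to several places were counted is not known, and its part in these low values was not tested. rpl9 (ENSDARG00000037350) stood at 35.7 and 34.0 CPM in slow muscle, 58.0 and 35.4 CPM in treated crest and 45.6 and 40.3 CPM in untreated crest. Both slow muscle libraries were below both untreated ones, with a log2 difference of -0.30 with an SE of 0.40 (adjusted p = 0.774 by edgeR). It was the only member with a positive value for treated over untreated crest, at 0.12. rps27l (ENSDARG00000100513), a relative of the small subunit gene rps27, had 16.9 and 19.9 CPM in slow muscle, 20.3 and 9.02 CPM in treated crest and 27.7 and 18.3 CPM in untreated crest. The symbol rpl37 names 2 rows, and the low one, ENSDARG00000076360, had 10.4 and 3.89 CPM in slow muscle, 10.5 and 0.564 CPM in treated crest and 11.3 and 23.0 CPM in untreated crest. It held between 0.157% and 2.71% of the counts of both. It had the most negative fold change of the members over untreated crest, at -1.26 with an SE of 1.43 (adjusted p = 0.718 by edgeR) for slow muscle and -1.63 with an SE of 1.45 (adjusted p = 0.939 by edgeR) for treated crest, with the widest error. rps8b (ENSDARG00000057368) had 57 counts and rpl26 (ENSDARG00000102317) 26 counts in untreated replicate 1. Both were at 0 in the other 5 libraries and did not pass the filter.

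The machinery that builds ribosomes was compared as a list of 74 tested ribosome biogenesis genes. In slow muscle 73 of the 74 had a negative log2 fold change over untreated crest, with a median of -1.33 against 0.08 over all genes. Of the 74, 71 (95.9%) were lower without overlap, against 27.3% of all genes. The list held 0.427% and 0.471% of counts in slow muscle, 1.49% and 1.13% in treated crest and 1.36% in each untreated crest library. The nucleolar protein gene ncl averaged 807 ± 113 CPM in slow muscle against 1792 ± 4.01 CPM in untreated crest (SD, n = 2 each), with a log2 difference of -1.15 with an SE of 0.34 (adjusted p = 0.150 by edgeR). npm1a, which encodes another nucleolar protein, averaged 235 ± 36.2 CPM in slow muscle against 1027 ± 49.8 CPM in untreated crest, a difference of -2.13 with an SE of 0.46 (adjusted p = 0.0769 by edgeR). nop56, a core protein of the particles that methylate ribosomal RNA, had 229 ± 22.04 CPM in slow muscle and 601 ± 8.39 CPM in untreated crest, a difference of -1.39 with an SE of 0.30 (adjusted p = 0.0763 by edgeR).

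None of the 74 passed edgeR's adjusted threshold in that comparison. An unadjusted p below 0.05 with a negative fold change was found for 53 (7.67% of all genes), and DESeq2 called 34 lower (6.04% of all genes). Without cyclopamine replicate 4, which enters this comparison only through the scaling, the filter and the shared spread, edgeR called 48 lower (5.05% of all genes). Over all alternatives the median lay between -1.58 and -1.25. Against treated crest the median was -1.20. The nucleolar phosphoprotein gene nolc1 fell to 96.0 ± 7.56 CPM in slow muscle, against 367 ± 6.48 CPM in treated crest, a difference of -1.94 with an SE of 0.28 (adjusted p = 0.0379 by edgeR). It was the only gene of the list that edgeR called there, as lower (0.797% of all genes). At an unadjusted p below 0.05, 40 were lower (8.41% of all genes), and DESeq2 called 29 lower (6.49%). The edgeR call of nolc1 was lost in 6 of 15 alternatives (adjusted p = 0.0928 to 0.158 by edgeR). These were each slow muscle or untreated library left out, only the 2 groups compared, and scaling to the ribosomal protein genes. Treated crest had a median of -0.17 against untreated crest, with 0 called by edgeR or DESeq2 and 0 at an unadjusted p below 0.05.

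**Figure D5:**
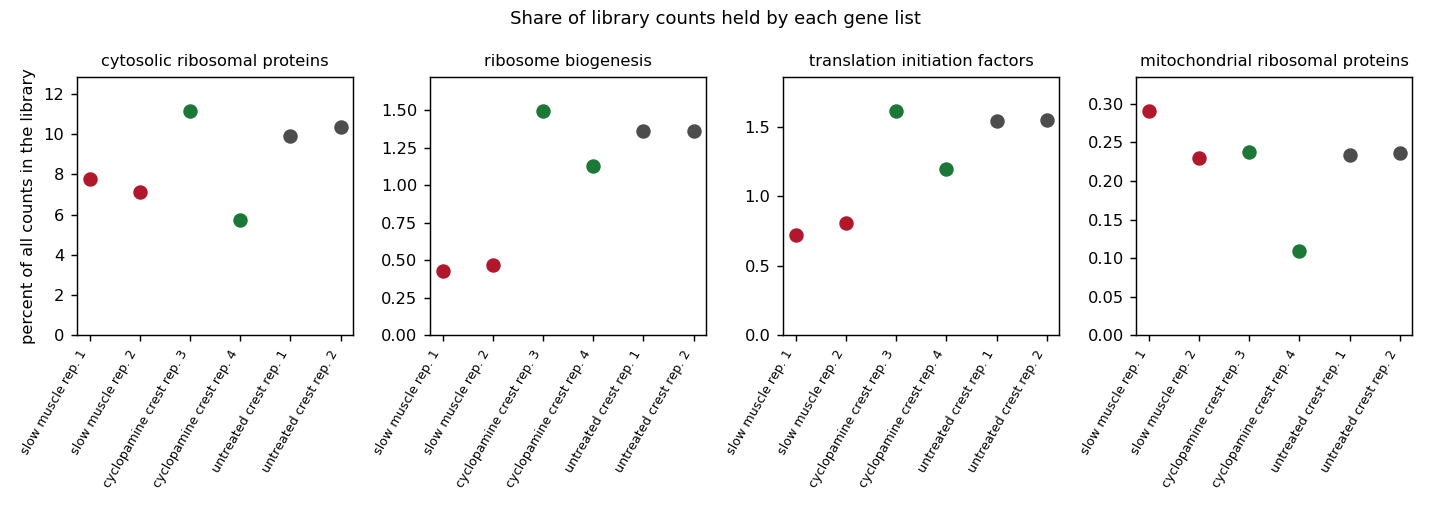
Share of all counts held by the ribosomal protein genes and by related gene lists in each library, in percent. Ribosome biogenesis genes hold 0.427% and 0.471% in slow muscle and 1.13% to 1.49% in crest, while the ribosomal protein genes hold 7.10% and 7.75% in slow muscle and 5.72% to 11.2% in crest.

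Other lists of the translation machinery had medians closer to that of all genes. For 35 initiation factors the median log2 fold change of slow muscle over untreated crest was -0.53. Of the 35, 29 (82.9%) were lower without overlap, against 27.3% of all genes, and 4 (11.4%) higher, against 33.6%. None was called by edgeR, 10 were lower at an unadjusted p below 0.05 (7.67% of all genes) and 9 were called lower by DESeq2 (6.04%). eif4a1a, the helicase that opens the messenger RNA leader, had 571 ± 64.1 CPM in slow muscle and 1192 ± 24.7 CPM in untreated crest, a difference of -1.06 with an SE of 0.36 (adjusted p = 0.198 by edgeR). For 23 elongation factors and other oligopyrimidine mRNAs the median was -0.35, with 8 positive and 15 negative values. Of the 23, 14 (60.9%) were lower without overlap, against 27.3% of all genes, and 5 (21.7%) higher, against 33.6%. None was called by edgeR, 2 were higher and 7 lower at an unadjusted p below 0.05 (11.5% and 7.67% of all genes), and DESeq2 called 2 higher and 5 lower (11.6% and 6.04%). pabpc1a, the poly(A) binding protein gene, had 1239 ± 176 CPM in slow muscle and 2428 ± 9.89 CPM in untreated crest, a difference of -0.97 with an SE of 0.33 (adjusted p = 0.194 by edgeR). The elongation factor genes eef2b and eef1a1l1 had differences of -0.77 and -0.20, and tpt1 had one of 0.08. The 12 tested genes of RNA polymerase I, which transcribes ribosomal RNA, and its factors had a median of -0.92. This list had 17 entries, and 5 had no match in the count table. Of the 12, 9 (75%) were lower without overlap, against 27.3% of all genes, and 1 (8.33%) higher, against 33.6%. None was called by edgeR, 1 was lower at an unadjusted p below 0.05 (7.67% of all genes) and DESeq2 called 1 lower (6.04%).

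Mitochondrial ribosomal protein genes had a positive median, and few of them passed any threshold. Of 74 tested, 64 had a positive log2 fold change of slow muscle over untreated crest, and 39 (52.7%) were higher without overlap, against 33.6% of all genes. edgeR called 0, 2 were higher at an unadjusted p below 0.05 (11.5% of all genes) and DESeq2 called 1 higher (11.6%). Their median was 0.55, and it was 0.17 without slow muscle replicate 1 and 0.80 without replicate 2. The 9 cytosolic ribosomal proteins and near relatives outside the symbol rule had a median of -0.02, with 0 called by edgeR or DESeq2 and 0 at an unadjusted p below 0.05. Among these, the small subunit gene rpsa had 2604 ± 259.6 CPM in slow muscle and 2641 ± 58.4 CPM in untreated crest.

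Among 22 genes of mTOR, the S6 kinases and Myc, which control ribosome production, edgeR called only mycn in slow muscle against untreated crest. It was called lower, as were 0.876% of all genes. It fell to 79.7 ± 0.903 CPM in slow muscle, against 432 ± 50.4 CPM in untreated crest, a log2 difference of -2.44 with an SE of 0.36 (adjusted p = 0.0337 by edgeR). The call was lost when any slow muscle or untreated library was left out (adjusted p = 0.0961 to 0.150 by edgeR) and when libraries were scaled to the ribosomal protein genes (0.0580). The list's median was 0.18. At an unadjusted p below 0.05, 4 of its genes were higher (11.5% of all genes) and 2 lower (7.67%), and DESeq2 called 3 higher (11.6%) and 2 lower (6.04%). With a replicate block edgeR called 3 higher, and no alternative called more. The share of all genes called in that fit was not counted, so these 3 cannot be set against a background.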

How the data were processed

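Counts of reads per Ensembl gene were deposited by the authors for 6 libraries and used as they stand; no other per-sample column entered. Per the submitters' processing notes the tools included STAR, featureCounts, Subread and DESeq2. Not given in the sources used here are their versions, the genome build, the annotation, the strand setting and how multi-mapping reads were counted. Counts of paralogues and overlapping genes are therefore uncertain. A stranded Illumina kit was used, per the labels' protocols. The deposited table of log2 normalized values was not used.

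All 6 libraries entered a single edgeR 4.0.16 quasi-likelihood fit of 3 groups in R 4.3.3 (limma 3.58.1), with TMM scaling and filterByExpr (minimum count 10, minimum total 15), because a pair of libraries gives a poor estimate of spread. edgeR estimated a common dispersion of 1.132 and 2.94 prior degrees of freedom. SEs were back-calculated as the absolute log2 fold change over the square root of the test's F statistic. Two-sided p-values were adjusted by Benjamini-Hochberg over the 17701 genes tested, with a threshold of 0.05. The script was checked on simulated data with a dispersion of 0.05 for every gene. That is lower than the spread of these data, which the check does not cover. Total counts of 15355583 to 26441238 per library bound the counting error, which the Wilson intervals cover.

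The members and gene lists were chosen with earlier results of these data known. Named were members called by the test, the 5 largest changes per direction and comparison, paralogue pairs, members with a known role, and up to 4 genes per related list. Ranking by abundance per coding length could not be applied, since no lengths were at hand. Also named, after their values were seen, were rpl4, rpl6, rpl23a, rpl26, rpl32, rpl34, rpl36, rps15a and rps25. A few genes that the rule takes, and the related list that rests on 1 of them, are not reported here. The related lists share some genes. Alternatives were other filters and scalings, DESeq2 1.42.0, only the groups compared, a replicate block, and each library left out; a fit with newer edgeR deviances and scaling to the members were added after seeing the data. RefSeq names and neighbours came from GRCz12tu, matched by Entrez ID for 78 of 78 members.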

Additional observations from a re-analysis of the deposited data

How the results depend on the processing

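The count of 0 called members held in all 3 comparisons under every alternative except leaving out cyclopamine replicate 3. Leaving out each library in turn gave 0 to 16 members called lower and medians of -0.97 to 0.19 for cyclopamine over untreated crest, 0 to 42 called higher and medians of -0.21 to 0.93 for slow muscle over cyclopamine-treated crest, and medians of -0.26 to 0.10 for slow muscle over untreated crest. Without cyclopamine replicate 3 the medians of -0.97 and 0.93 stood against medians of -0.17 and 0.66 over all genes. Without cyclopamine replicate 4 those of 0.19 and -0.21 stood against 0 and 0.11. Calls in these fits rest on 1 treated library, which is assumed to vary like the other groups. For slow muscle over untreated crest the members' median was -0.29 with upper quartile scaling and 0.04 with RLE scaling or DESeq2. The median of all genes was -0.16 with upper quartile scaling (0.08 with TMM). Shares of counts ranged from 7.10% to 7.75% in slow muscle, 5.72% to 11.2% in cyclopamine-treated crest and 9.93% to 10.4% in untreated crest over the single libraries. Leaving out the 10 most abundant other genes gave mean shares of 8.27% in slow muscle and 10.99% in untreated crest. With a replicate block, slow muscle over untreated crest had a median of -0.05 and 0 calls; deviations of same-numbered libraries had r = 0.015 over 17701 genes and r = -0.60 over the 76 members, and the libraries share only a number. Of 1472 alternative values for the 32 members named by rule, 1384 lay within 1 SE of the main value and 67 moved by more than 1 SE, 65 of them with a cyclopamine library left out. The other 21 became called, all without cyclopamine replicate 3, and 175 values that were not called changed sign. For the members' share of counts, Wilson intervals were at most 0.0305 percentage points wide, against SDs of 0.311 to 3.84 between replicates.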
